A study of Mus musculus with 8 samples.

Results

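Chromatin accessibility was examined at the 10 genes Tead1, Tead2, Tead3, Tead4, Yap1, Wwtr1, Lats1, Lats2, Amotl2 and Vgll4, which encode the transcription factors, coactivators, kinases, a scaffold and a cofactor of the Hippo pathway. A peak was taken when its centre lay inside the GRCm38 span of one of these genes or within 50 kb of it, which gave 261 of the 134407 peaks measured. Of these, 177 had no other protein-coding gene nearer than the Hippo gene, ties included, and were counted for it. The other 84 were nearer to another gene and are described apart. Of the 177 counted peaks, 133 lay inside the genes, 166 passed the filter on low values (a mean value of at least 10) and were tested, and 11 did not pass it.

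The Hippo pathway is a kinase cascade: when it is active, Lats1 and Lats2 phosphorylate the coactivators Yap1 and Wwtr1 (Taz), which are then kept in the cytoplasm or degraded. When it is inactive, Yap1 and Wwtr1 enter the nucleus and bind Tead factors, which hold the DNA-binding domain. Amotl2, of the angiomotin family, binds Yap1 and keeps it out of the nucleus, and Vgll4 competes with Yap1 for Tead. In the early mouse embryo the pathway is best known for the choice between trophectoderm, where Tead4 with nuclear Yap1 is active, and the inner cell mass, from which embryonic stem cells are derived.

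The cells were E14, an established wild-type line of mouse embryonic stem cells, so the data come from 1 line. All 8 libraries came from cells kept on gelatin in medium with serum and LIF, a cytokine that holds them in the pluripotent state. The 4 control libraries had no further treatment, and the 4 paused libraries came from cells given 200 nM INK128, an mTOR kinase inhibitor that puts stem cells into a state resembling the diapause of the blastocyst, for 24 h. Each library was made by ATAC-seq from 50000 live cells and read as 150 bp pairs; Tn5 transposase inserts adapters into open DNA, so the number of reads in a peak rises with its accessibility. The labels do not say whether replicates were separate cultures, and p-values then measure the spread between these samples only, which may be technical. In such bulk samples a peak open in more cells and a peak more open in each cell cannot be told apart.

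Reads in peaks ranged from 4434037 in control 3 to 21161767 in control 1, with 7238935 at most in the other libraries, and the median peak held 91 reads in control 1 and 18 to 29 in the others. The values below are reads per peak divided by 1 factor per library, as deposited. A count of 0 reads (up to 3 reads at the limit) allows a value of up to 1.04 in control 1 and up to 5.08 in control 3, for counting error only. Of the pluripotency markers, 4 of 5 had a peak within 1 kb of a gene end (none for Pou5f1), with a summed value of 733 to 820 in control and 906 to 1012 in paused libraries. Trophoblast markers summed to 235 to 276 and 284 to 358 (4 of 5 with a peak, none for Eomes), primitive endoderm markers to 190 to 220 and 205 to 236 (2 of 4, none for Gata4 and Pdgfra), and fibroblast markers to 367 to 464 and 453 to 494 (4 of 5, none for Col3a1). Within these sums the paused mean was below the control mean for Cdx2 (13.1 and 18.6), Elf5 (21.3 and 22.8) and Col1a2 (82.4 and 90.2). Every other marker with a peak had a higher paused mean. The part of these shifts in the results was not tested.

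Changes are given as log2 differences of value + 1, paused minus control, with the standard error and the Benjamini-Hochberg adjusted p of limma-trend over 127402 peaks; a peak is called at an adjusted p under 0.05. Over all peaks the median change was 0.10 with the deposited factors and 0.00 after TMM rescaling, and 79.0% and 59.1% of calls were upward. The shift with the deposited factors differed by strength, with a median of 0.17 in peaks stronger than the median peak and -0.02 in weaker ones. A change of a Hippo peak is therefore to be read against the shift of peaks of its strength.

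RefSeq lists promoter windows (GRCm38.p6) for 8 of the 10 genes, with none for Tead1 and Tead4. The 250 bases before the listed start are printed for both coactivators and for Tead3, because an ATAC peak lies wholly (Yap1) or partly (Wwtr1 and Tead3) in these windows. In each, the bases inside the peak hold the 6 letters GGAATG, the core to which Tead factors are known to bind. All 3 genes lie on the minus strand, the sequences run 5′ to 3′ toward the start, and capitals mark the bases inside the measured peak. The Wwtr1 peak runs across the listed start, while those of Yap1 and Tead3 end before it, as the lower-case bases at the end of these 2 sequences show. The gene span of Yap1 reaches to 8004638, which lies inside its peak. The windows are chr9:8004597-8004846 for Yap1, chr3:57575911-57576160 for Wwtr1 and chr17:28350806-28351055 for Tead3.
Yap1: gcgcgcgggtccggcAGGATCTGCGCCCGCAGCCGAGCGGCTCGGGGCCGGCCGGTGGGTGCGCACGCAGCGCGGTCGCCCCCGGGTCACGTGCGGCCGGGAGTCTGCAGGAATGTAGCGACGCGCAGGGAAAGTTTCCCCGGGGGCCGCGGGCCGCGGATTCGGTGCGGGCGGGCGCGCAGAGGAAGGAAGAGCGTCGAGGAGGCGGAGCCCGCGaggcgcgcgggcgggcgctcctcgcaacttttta
Wwtr1: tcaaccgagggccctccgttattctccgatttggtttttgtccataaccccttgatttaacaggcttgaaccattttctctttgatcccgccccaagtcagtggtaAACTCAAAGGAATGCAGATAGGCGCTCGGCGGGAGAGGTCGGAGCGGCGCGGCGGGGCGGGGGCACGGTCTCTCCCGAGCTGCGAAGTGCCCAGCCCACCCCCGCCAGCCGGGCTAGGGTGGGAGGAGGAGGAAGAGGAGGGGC
Tead3: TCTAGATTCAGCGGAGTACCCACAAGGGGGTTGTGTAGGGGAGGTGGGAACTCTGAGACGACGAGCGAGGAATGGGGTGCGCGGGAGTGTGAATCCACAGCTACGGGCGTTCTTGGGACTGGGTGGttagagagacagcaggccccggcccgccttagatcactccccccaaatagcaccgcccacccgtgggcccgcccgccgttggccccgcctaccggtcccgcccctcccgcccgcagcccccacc
GGAATG begins at base 110 of the Yap1 sequence, base 115 of the Wwtr1 sequence and base 69 of the Tead3 sequence, counted from the 5′ end, and each sequence holds it 1 time. Searched on both strands of windows that run from 250 bases before to 50 bases after the start, it was found in 8 of the 12 listed windows, some of which overlap, and in 6 of the 8 genes (Amotl2, Lats2, Tead3, Vgll4, Wwtr1 and Yap1). It occurs in 14.7% of all 32851 windows and in 16.6% of 27025 genes. The AP-1 letters TGANTCA were in 0 of the 12 windows and in 7.81% of all windows. A match of letters is a description of the sequence and shows no binding.

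Of the 166 tested Hippo peaks, 12 rose and 3 fell, or 9.04%, where 13.9% of all tested peaks were called. Upward calls made up 7.23% of the Hippo peaks and 11% of all peaks, and downward calls 1.81% and 2.91%. The counts given below for single genes are to be read against these shares of all peaks. The 15 called peaks were spread over 8 genes, with none at Tead3 or Yap1, and their changes were mostly small: 2 exceeded 2-fold, both at Amotl2, where 2.36% of all tested peaks were called with such a change. The control and paused libraries did not overlap in 22 of the 166 peaks (13.3%; 17.4% of all peaks), among them 12 of the 15 called.

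The upward calls depended on the scaling and on the test. After TMM rescaling 3 Hippo peaks rose and 5 fell, where 10.1% of all peaks were called, and the 3 that rose all belonged to Amotl2; a loess correction on peak strength left the same 3 Amotl2 peaks and 5 lower ones. With edgeR and TMM, 6 Hippo peaks rose, these 3 and 1 each of Lats2, Wwtr1 and Tead4, and 7 fell. Over all peaks edgeR with TMM called 9428 higher and 6759 lower. The 2 largest Amotl2 increases and 1 decrease beside Tead1 kept their call under every alternative in which they were tested, and the other 12 calls were lost under at least 1. An FDR under 0.05 stands beside 13 of the 177 peaks in the authors' deposited table, where 11% of all 134407 peaks had one. Of the 13, 12 were among the 15.

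**Figure D1:**
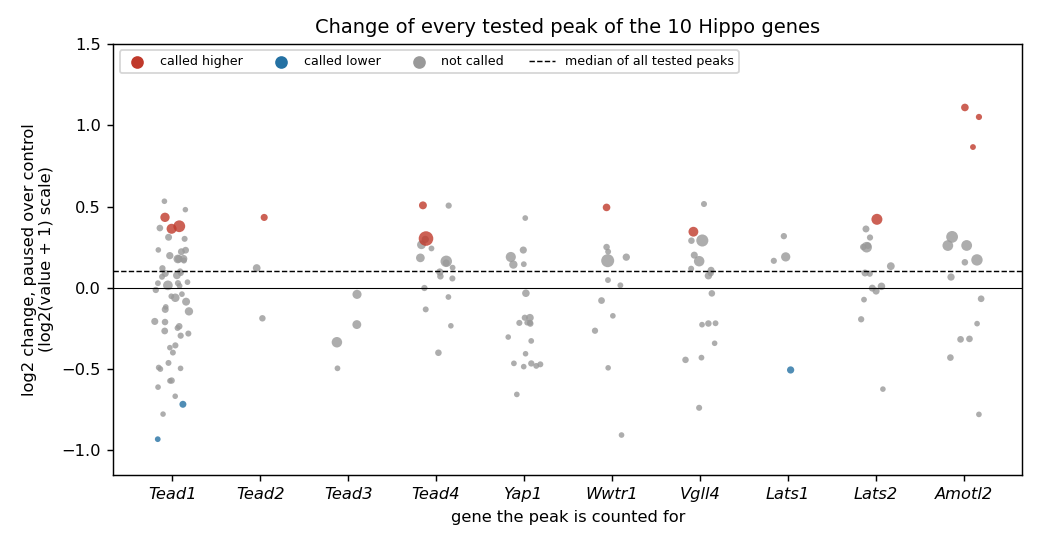
Log2 change (paused over control) of each of the 166 tested peaks, by gene, with point area growing with mean value, red for called higher, blue for called lower and grey for not called; the dashed line is the median of all tested peaks, 0.10. The 2 topmost points are Amotl2 peaks at 1.11 and 1.05, and the 4 Tead3 points and 16 of the 21 Yap1 points lie below 0.

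Amotl2, the angiomotin-family scaffold, had the largest changes. It spans chromosome 9, 102717091 to 102733418, on the plus strand, and 3 of its 15 tested peaks rose and 0 fell. The peak at 102693050 to 102693250, 23941 bp before the 5′ end of the gene, had values of 36.99, 50.16, 52.49 and 57.31 in the control libraries and 81.9, 110.41, 125.68 and 111.3 in the paused ones. Every paused library was above every control library, and the mean went from 49.2 ± 8.69 to 107 ± 18.3 (SD, n = 4), or 2.18 times (log2 change 1.11, SE 0.16, adjusted p = 8.19e-06). The authors' deposited table gives it a log2 fold of 1.05 and an FDR of 1.31e-08.

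A weaker peak inside Amotl2, at 102720021 to 102720221 and 3030 bp from the 5′ end, had 24.54, 27.47, 13.55 and 14.69 in the control and 42.68, 42.59, 32.58 and 46.86 in the paused libraries. The groups did not overlap, and the mean rose from 20.1 ± 6.98 to 41.2 ± 6.07 (2.05 times; log2 change 1.05, SE 0.23, adjusted p = 0.00192). The smallest of the 3, at 102695642 to 102695842 and 21349 bp before the gene, had 15.9, 11.94, 11.85 and 14.69 against 24.22, 23.66, 24.83 and 29.29. These groups were apart as well, at 13.6 ± 2.02 and 25.5 ± 2.57 (log2 change 0.87, SE 0.26, adjusted p = 0.0212), but it held only 18.8 reads per library on average, and its call was lost under DESeq2 and without paused replicate 4 (adjusted p = 0.0766).

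The stronger Amotl2 peaks moved less. Nearest to the start, at 102717211 to 102717411, the values were 189.1, 189.9, 231.98 and 196.91 in control and 220.33, 242.9, 273.08 and 231.97 in paused libraries. The groups overlapped and the peak did not pass (202 ± 20.3 and 242 ± 22.6; log2 change 0.26, SE 0.11, adjusted p = 0.115). The strongest peak counted for Amotl2, at 102779644 to 102779844 and 46326 bp past its 3′ end, had means of 248 ± 27.6 and 308 ± 35.5 (log2 change 0.31, SE 0.11, adjusted p = 0.0527). It passed without control replicate 4 or paused replicate 1 (adjusted p = 0.0329 to 0.0463). In the authors' deposited table it was the 1 Hippo peak under an FDR of 0.05 that was not called here.

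**Figure D2:**
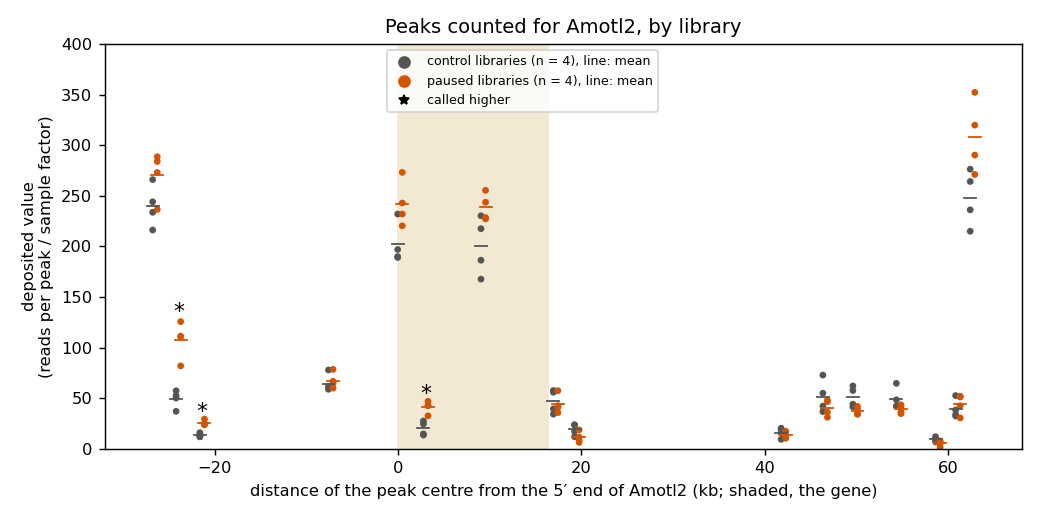
Deposited value of every library at each of the 16 peaks counted for Amotl2, by distance of the peak from the 5′ end of the gene in kb (shaded: the gene); grey points and lines are control libraries and their mean, orange points and lines paused libraries and their mean (n = 4 each), and stars mark the 3 peaks called higher. The starred peaks lie before the gene and just inside it and are lower than the start peak, whose libraries range from 189.1 to 273.08.

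The kinases Lats1 and Lats2 each had 1 called peak, in opposite directions. Lats1 spans chromosome 10, 7681200 to 7716461, on the plus strand, with 4 tested peaks. Its peak at 7715159 to 7715359, inside the gene and 1202 bp from the 3′ end, had 71.21, 70.47, 82.97 and 77.88 in control and 44.99, 67.82, 49.65 and 51.55 in paused libraries. The highest paused library stayed below the lowest control library, and the peak fell from 75.6 ± 5.92 to 53.5 ± 9.93 (log2 change -0.51, SE 0.16, adjusted p = 0.0255). It kept its call after TMM rescaling (adjusted p = 0.00949) and the loess correction, and lost it without control replicate 3 or 4 or paused replicate 1, 3 or 4 (adjusted p = 0.0515 to 0.08).

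The start peak of Lats1 (7681350 to 7681550), its strongest, had 105.44, 192.29, 115.14 and 139.6 against 167.27, 135.65, 176.88 and 138.25. The groups overlapped widely (138 ± 38.9 and 155 ± 20.7; log2 change 0.19, SE 0.14, adjusted p = 0.393).

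Lats2 spans chromosome 14, 57689662 to 57746212, on the minus strand, with 15 tested peaks, of which 1 rose. This was its strongest, at 57732811 to 57733011 and 1507 bp from the nearer of its listed starts, with 166.63, 218.56, 230.29 and 180.75 in control and 249.17, 296.53, 242.05 and 274.15 in paused libraries. The groups did not overlap (199 ± 30.2 and 265 ± 24.9; log2 change 0.42, SE 0.12, adjusted p = 0.0123), but the call was lost after TMM rescaling, loess correction, under DESeq2, and without control replicate 1 or paused replicate 2 (adjusted p = 0.0574 to 0.0618). The call held under edgeR with TMM (adjusted p = 0.0367). The peak at the upper start, 57746055 to 57746255, which a predicted gene (Gm52140) shares, had 165.24, 263.95, 165.94 and 191.03 against 259.55, 219.24, 224.98 and 216.74. Control 2 was the highest library of all 8 there, and the groups overlapped (197 ± 46.5 and 230 ± 19.9; log2 change 0.25, SE 0.13, adjusted p = 0.181); without that library the peak passed (adjusted p = 0.0214).

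Yap1, the main coactivator of the pathway, had no called peak among 21 tested by limma-trend, with the smallest adjusted p at 0.119; 2 had an unadjusted p under 0.05, and edgeR with the deposited factors called none either. It spans chromosome 9, 7931999 to 8004638. Its strongest peak is the one at the start whose bases are printed above (8004631 to 8004831, centre 135 bp from the listed start), with 153.49, 212.59, 152.4 and 183.69 in control and 236.48, 181.39, 189.3 and 190.97 in paused libraries. The groups overlapped (176 ± 28.6 and 199.5 ± 25.0; log2 change 0.19, SE 0.12, adjusted p = 0.313), and the loess correction turned the difference to -0.02. Away from the start the values leaned the other way. Over all tested peaks, 52.0% of those weaker than the median peak and 25.5% of the stronger ones had a negative difference. At Yap1 16 of the 21 peaks did, with differences from -0.66 to 0.43 and a median of -0.22. The peak with the smallest p, inside the gene at 7958114 to 7958314, had 37.34, 34.64, 45.72 and 39.68 against 25.38, 22.08, 32.58 and 33.98, so that all paused libraries were below all control ones without passing the test (log2 change -0.47, SE 0.20, adjusted p = 0.119).

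Wwtr1, the paralog of Yap1, had 1 called peak of 12. It spans chromosome 3, 57455644 to 57575910, on the minus strand, and the called peak lies 7799 bp before its start, at 57583609 to 57583809. The values were tight, with 65.68, 64.49, 66.04 and 63.19 in control and 91.13, 94.64, 89.99 and 91.38 in paused libraries. With no overlap the mean rose from 64.8 ± 1.29 to 91.8 ± 2.00, or 1.42 times (log2 change 0.49, SE 0.14, adjusted p = 0.013), and the call was lost after TMM rescaling, loess correction and under DESeq2. The call held under edgeR with TMM (adjusted p = 0.0434). The start peak shown above (57575854 to 57576054) is the strongest of Wwtr1, with 295.92, 360.69, 345.43 and 318.88 against 364.53, 332.8, 398.76 and 386.62. It overlapped between groups (330 ± 28.7 and 371 ± 29.0; log2 change 0.17, SE 0.10, adjusted p = 0.291).

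Among the Tead factors, Tead1 carried the most peaks and had calls in both directions. It spans chromosome 7, 112679356 to 112906784, and 3 of its 56 tested peaks rose and 2 fell, with a median difference of -0.03. Over all tested peaks 11% rose and 2.91% fell. The decrease at 112663352 to 112663552, outside the gene and 15904 bp below its lower-coordinate end, was the 1 Hippo decrease kept under all 17 alternatives. Its values were 50.47, 65.69, 76.2 and 83.76 in control and 29.99, 41.01, 60.51 and 37.49 in paused libraries. Paused 3 lay above control 1, so the groups overlapped, and the mean fell from 69.0 ± 14.4 to 42.2 ± 13.0 (log2 change -0.72, SE 0.19, adjusted p = 0.00796). The other decrease, inside the gene at 112695856 to 112696056, rested on 17.1 reads per library and had 19.01, 16.72, 27.09 and 26.45 against 11.54, 18.93, 9.31 and 7.03. Its groups overlapped too (log2 change -0.93, SE 0.31, adjusted p = 0.036), and the call was lost under 8 of 16 alternatives, 6 of them fits without 1 library (control replicate 1, 3 or 4, or paused replicate 1, 3 or 4; adjusted p = 0.0529 to 0.128).

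The 3 Tead1 increases were in strong peaks inside the gene. At 112691448 to 112691648 the values were 235.42, 214.98, 253.99 and 261.57 in control and 313.77, 321.76, 314.97 and 303.44 in paused libraries. The groups were apart (241 ± 20.8 and 313 ± 7.56, or 1.30 times; log2 change 0.38, SE 0.11, adjusted p = 0.0126). The peak at 112780999 to 112781199 had 128.94, 100.32, 165.94 and 117.56 against 140.73, 181.39, 173.78 and 190.97, with control 3 inside the paused range (log2 change 0.43, SE 0.13, adjusted p = 0.0257). The peak at 112841961 to 112842161 had 154.87, 156.46, 154.09 and 173.4 against 203.03, 220.82, 193.95 and 205.03, with the groups apart (log2 change 0.36, SE 0.11, adjusted p = 0.0253). All 3 calls were lost after TMM rescaling, loess correction and under DESeq2. The last 2 were also lost without paused replicate 2 or 4 and without control replicate 2 or 4 (112780999; adjusted p = 0.072 to 0.108) or control replicate 1 or 3 (112841961; adjusted p = 0.0626 to 0.0787). The peak at the lower end of Tead1 (112679119 to 112679319) had 116 ± 28.0 and 110 ± 12.4 and did not pass (log2 change -0.06, SE 0.14, adjusted p = 0.819).

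**Figure D3:**
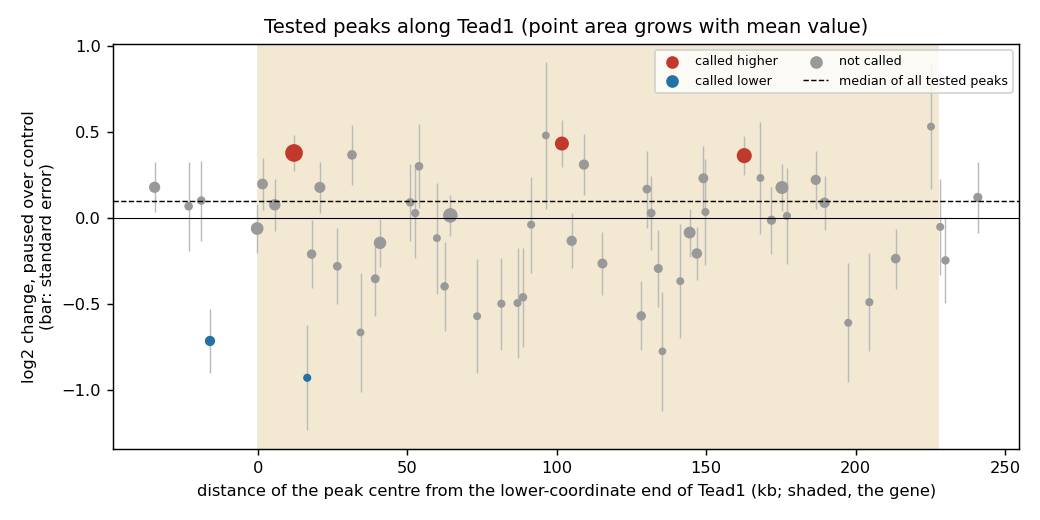
Log2 change of the 56 tested peaks counted for Tead1, with standard errors, by distance from the lower-coordinate end of the gene in kb (shaded: the gene); point area grows with mean value, red marks called higher, blue called lower, and the dashed line is the median of all tested peaks, 0.10. The 3 red points are large and lie inside the gene, and the blue points lie at -0.72 below the gene and at -0.93 inside it.

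Tead4, the Tead factor of the trophectoderm, had 2 of 18 tested peaks called higher and 0 lower. It spans chromosome 6, 128227143 to 128300813. A peak inside it, at 128254642 to 128254842, had 73.98, 66.88, 72.81 and 80.82 in control and 102.67, 104.1, 86.89 and 130.04 in paused libraries. The groups did not overlap (73.6 ± 5.72 and 106 ± 17.9, or 1.44 times; log2 change 0.51, SE 0.14, adjusted p = 0.0131). The strongest peak of any of the 10 genes, 26452 bp below the lower end at 128200591 to 128200791, had 368.17, 450.27, 397.92 and 421.75 against 482.19, 460.56, 591.16 and 492.06. It rose by 0.30 without overlap (410 ± 34.9 and 506 ± 58.0; SE 0.10, adjusted p = 0.0405), and both Tead4 calls were lost after TMM rescaling. Under edgeR with TMM the first held (adjusted p = 0.0225) and the second did not. The first was also lost without paused replicate 4 (adjusted p = 0.0867), and the second without control replicate 1, 3 or 4 or paused replicate 3 or 4 (adjusted p = 0.0698 to 0.148). The peak at the upper end of the gene (128300477 to 128300677) had 245 ± 35.4 and 274 ± 38.8 and did not pass (log2 change 0.16, SE 0.12, adjusted p = 0.38).

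Tead3 had no called peak, and edgeR with the deposited factors called none either. It spans chromosome 17, 28331671 to 28350805, on the minus strand, and all 4 of its peaks had negative differences, with a median of -0.28. The strongest, inside the gene at 28341184 to 28341384, had 205.69, 235.29, 276.01 and 205.73 in control and 190.34, 165.61, 204.81 and 167.53 in paused libraries. The groups were just apart, at 231 ± 33.3 and 182 ± 18.9, and the adjusted p of 0.0507 missed the threshold (log2 change -0.33, SE 0.12). It passed under 9 of 17 alternatives, TMM rescaling (-0.44, adjusted p = 0.0127) and the loess correction (-0.54, adjusted p = 0.00103) among them, and without control replicate 1 or 4 or paused replicate 3 (adjusted p = 0.0304 to 0.0472). The start peak printed above (28350930 to 28351130) had 149.34, 115.85, 155.78 and 148.42 against 141.89, 138.8, 139.64 and 130.04. Here the paused libraries lay within the control range (142 ± 18.0 and 138 ± 5.20; log2 change -0.04, SE 0.12, adjusted p = 0.863).

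Tead2 had few peaks of its own, since 19 of the 24 in its window were nearer to other genes. It spans chromosome 7, 45215792 to 45233468, on the plus strand, and 1 of its 3 tested peaks rose. That peak, inside the gene at 45216769 to 45216969 and 1077 bp from its start, had 53.24, 50.16, 49.11 and 49.96 in control and 64.6, 67.82, 69.82 and 72.64 in paused libraries. The groups were apart (50.6 ± 1.81 and 68.7 ± 3.38), while the adjusted p was at the threshold (log2 change 0.43, SE 0.15, adjusted p = 0.0498), and leaving out any 1 library ended the call (adjusted p = 0.0591 to 0.121). Its strongest peak (45229584 to 45229784) had 78.7 ± 4.71 and 86.8 ± 17.3 (log2 change 0.12, SE 0.15, adjusted p = 0.619).

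Vgll4, the cofactor that competes with Yap1 for Tead, had 1 of 18 tested peaks called higher. It spans chromosome 6, 114860621 to 114970007, on the minus strand. The called peak lies inside the gene at 114875074 to 114875274, with 147.61, 144.52, 165.94 and 152.83 in control and 193.8, 175.08, 204.81 and 203.85 in paused libraries. The groups were apart (153 ± 9.45 and 194 ± 13.8, or 1.27 times; log2 change 0.35, SE 0.11, adjusted p = 0.0376), and the call was lost under 10 of 17 alternatives, among them TMM rescaling and the fits without control replicate 1, 2 or 4 or paused replicate 1, 3 or 4 (adjusted p = 0.0604 to 0.109). The start peak (114968903 to 114969103) is the strongest of Vgll4, with 222.63, 295, 292.94 and 248.35 against 296.47, 317.03, 372.38 and 306.95. Its groups also did not overlap, though the margin was narrow, and it did not pass (265 ± 35.4 and 323 ± 33.8; log2 change 0.29, SE 0.11, adjusted p = 0.073). It passed without control replicate 2 (adjusted p = 0.0403) and with the replicate number as a block (adjusted p = 0.0245).

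Of the 9 genes with a peak within 1 kb of a start or, without a listed strand, of a gene end, 0 had it called by limma-trend, and 0 by edgeR with the deposited factors. Over all genes limma-trend called 11.7% of the peaks within 1 kb of either gene end (10.4% higher). That set is wider, since it takes in 3′ ends and every peak there. At an unadjusted p under 0.05 there were 2 of the 9. The differences ran from -0.06 to 0.29 with adjusted p from 0.073 to 0.863, and 7 were positive, of which those of Tead4, Yap1, Wwtr1 and Lats1 turned negative under the loess correction. Tead2 had no such peak.

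**Figure D4:**
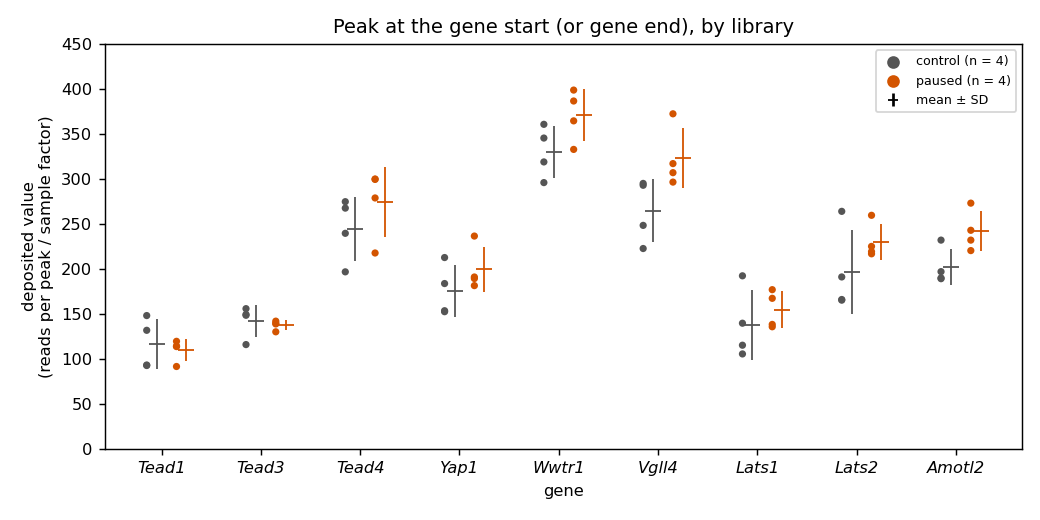
Deposited value of the peak at the start (for Tead1 and Tead4, a gene end) of 9 genes, by library, with control in grey and paused in orange (n = 4 each) and bars for the mean ± SD. Control and paused points overlap at 8 genes and are narrowly apart at Vgll4, where they run from 222.63 to 295 and from 296.47 to 372.38.

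As over all peaks, more strong than weak Hippo peaks were called higher. Of 81 peaks weaker than the median of all tested peaks, 2 rose and 1 fell, where 5.03% of all weak peaks rose and 3.95% fell, and their median difference was -0.19, where all weak peaks had -0.02. Of 85 stronger ones, 10 rose and 2 fell, where 16.9% of all strong peaks rose and 1.86% fell, and their median of 0.14 was near that of all strong peaks, 0.17.

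To give 1 value per gene and library, the values of all its counted peaks were summed, and the sums of 18182 protein-coding genes were fitted together. With the deposited factors 3 of the 10 Hippo genes rose, where 29.8% of all genes did, and 1 fell, where 1.4% did. The shift over all genes was large on this measure, with a median of 0.15, and 95.5% of calls were upward, against 52.2% after TMM rescaling. The sums that rose were those of Tead4, Lats2 and Amotl2.

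Tead4 summed to 1299.81, 1428.44, 1439.29 and 1438.65 in control and 1542.31, 1537.84, 1703.66 and 1729.22 in paused libraries (log2 change 0.22, SE 0.05, adjusted p = 0.00254). Amotl2 summed to 1280.08, 1246.89, 1368.17 and 1387.2 against 1395.81, 1496.86, 1688.13 and 1562.89 (log2 change 0.22, SE 0.05, adjusted p = 0.00411). Lats2 went from 965 ± 61.4 to 1101 ± 26.6 (log2 change 0.19, SE 0.06, adjusted p = 0.0106). In all 3 genes the groups did not overlap, and none of the 3 passed after TMM rescaling (4.6% of all genes higher, 4.21% lower), with changes of 0.07, 0.07 and 0.05 and adjusted p of 0.354, 0.384 and 0.653.

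Tead3 was the gene whose sum fell, with 510.6, 514.76, 599.43 and 509.91 in control and 467.19, 422.71, 502.72 and 424.1 in paused libraries. The groups did not overlap, with a change of -0.23 (SE 0.08, adjusted p = 0.0235) that grew to -0.38 (adjusted p = 0.00121) after TMM rescaling. Control 3 was the highest library, and without it, without paused replicate 2 or without paused replicate 4 the call was lost (adjusted p = 0.0719 to 0.107). Yap1 summed to 843.16, 881.42, 850.06 and 936.07 against 882.49, 774.45, 896.84 and 811.91. Its groups overlapped with the deposited factors (log2 change -0.06, SE 0.06, adjusted p = 0.444), and it passed as lower after TMM rescaling (-0.21, adjusted p = 0.0182) and the loess correction (-0.21, adjusted p = 0.0141).

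The remaining 5 sums did not pass with the deposited factors. Wwtr1 had a difference of 0.13 (adjusted p = 0.113) and Vgll4 one of 0.13 (adjusted p = 0.0773; 0.0338 to 0.0496 without control replicate 3, paused replicate 1 or paused replicate 2). Tead1, Tead2 and Lats1 had 0.04, 0.07 and 0.03, with adjusted p of 0.356, 0.606 and 0.853. All 5 were negative after TMM rescaling, at -0.02, -0.01, -0.10, -0.08 and -0.12 in the same order. Tead1 passed as lower under the loess correction (-0.11, adjusted p = 0.0365).

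**Figure D5:**
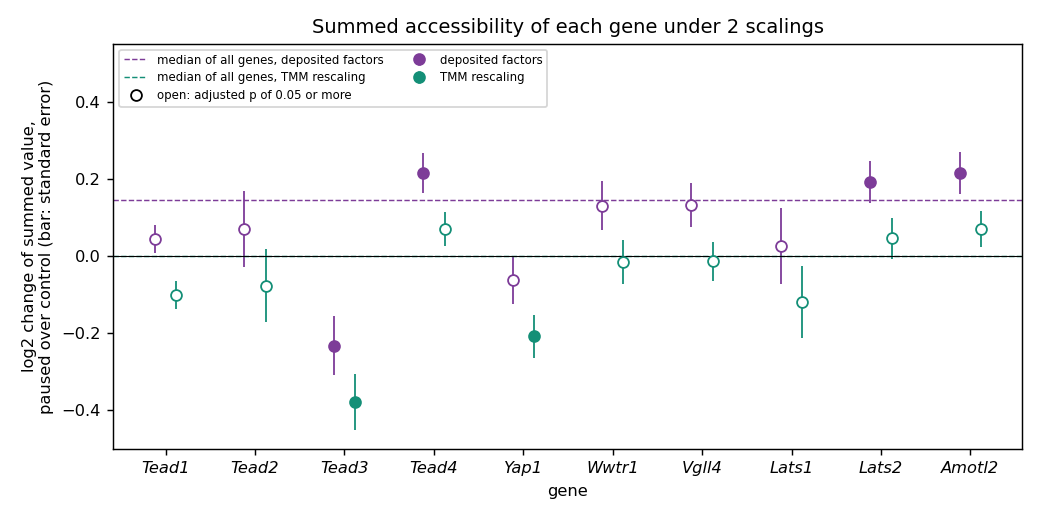
Log2 change of the summed value of each gene with its standard error, with the deposited factors (purple) and after TMM rescaling (green); filled points have an adjusted p under 0.05, and dashed lines are the medians of all genes, 0.15 and 0.00. Filled purple points are Tead3 (-0.23), Tead4 (0.22), Lats2 (0.19) and Amotl2 (0.22), and filled green points are Tead3 (-0.38) and Yap1 (-0.21).

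The genes whose sums across the 8 libraries were most like that of Yap1 were Elf2, Dhdh and Ticam2, with root mean square log2 differences of 0.0304, 0.0358 and 0.0360 and a median of 0.175 over 18181 genes. Libraries share their factors and depth, so this is a description. Of the other Hippo genes, Tead1 was nearest at 0.112 (rank 1965) and Amotl2 farthest at 0.169 (rank 8458).

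Among the peaks nearer to another gene, 80 were tested, of which 9 rose and 5 fell, where 11% of all tested peaks rose and 2.91% fell. The clearest lay in the window of Yap1 but beside Birc3, which encodes an inhibitor of apoptosis, at chromosome 9, 7894119 to 7894319, 37780 bp from Yap1. It had 11.06, 14.33, 6.77 and 16.16 in control and 33.45, 29.97, 26.38 and 30.46 in paused libraries. Every paused library was above every control one, and the mean rose from 12.1 ± 4.12 to 30.1 ± 2.90 (log2 change 1.31, SE 0.27, adjusted p = 0.00113), on 18.8 reads per library. A peak beside Kash5 in the window of Tead2 fell by 1.39 on the log2 scale (adjusted p = 0.0121), and one beside Anapc13 in that of Amotl2 fell by 0.82 (adjusted p = 0.0419). These held 11.9 and 19.9 reads per library on average, and both calls were lost under the loess correction. The Kash5 peak had a value of 3.1 in paused replicate 3, below the 4.65 that a peak without reads could reach in that library. Increases were smaller beside Gm52140 near Lats2 (0.67, adjusted p = 0.00236), Tulp3 near Tead4 (0.45, adjusted p = 0.0134), Tulp1 near Tead3 (0.43, adjusted p = 0.0351), Rassf10 near Tead1 (0.38, adjusted p = 0.0159) and Pcmt1 and Nup43 near Lats1 (0.37, adjusted p = 0.0239). Of these 8 calls, those beside Birc3 and Gm52140 held without any 1 library, and each of the others was lost without control replicate 3 or paused replicate 4, with adjusted p up to 0.135. The calls beside Tulp3, Tulp1, Rassf10, and Pcmt1 and Nup43 were also lost under TMM rescaling, the loess correction, edgeR with TMM and DESeq2. Under DESeq2 those beside Gm52140 and Anapc13 were lost as well. In the windows of Wwtr1 and Vgll4 the peaks of smallest adjusted p, beside Commd2 (0.11) and Tamm41 (0.289), did not pass.

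A wider list of 31 further Hippo pathway genes had 305 tested peaks, of which 23 rose and 10 fell (10.8%, with 13.9% over all peaks), with a median of 0.03. In the core kinase cassette, which activates Lats kinases, 2 of 26 peaks rose and 0 fell, or 7.69%. The clearest lay 9188 bp outside Stk3, which encodes the kinase Mst2, at chromosome 15, 35164970 to 35165170, with 120.99, 126.6, 93.13 and 111.68 in control and 168.42, 173.5, 156.71 and 190.97 in paused libraries. The groups did not overlap (113 ± 14.7 and 172 ± 14.2; log2 change 0.61, SE 0.12, adjusted p = 0.000849), and the call held under all 17 alternatives.

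Upstream regulators and scaffolds had 17 of 220 peaks called higher and 8 lower, or 11.4%. Over all tested peaks 13.9% were called, 11% higher and 2.91% lower. The peak of smallest p lay inside Taok3, of the Tao kinases that phosphorylate Mst kinases, at chromosome 5, 117125730 to 117125930, with 91.96, 95.55, 60.96 and 60.25 against 190.34, 167.19, 108.61 and 117.16. It rose from 77.2 ± 19.2 to 146 ± 39.3 (1.89 times; log2 change 0.90, SE 0.16, adjusted p = 0.000192) without overlap, and kept the call under all 17 alternatives. Another peak inside Taok3, at 117248444 to 117248644, went the other way, with 23.16, 20.3, 47.41 and 30.86 against 10.38, 9.46, 17.07 and 11.72. It fell without overlap (log2 change -1.21, SE 0.28, adjusted p = 0.00308), on 21.1 reads per library, and kept the call under all 16 alternatives that tested it. The start peak of Frmd6 rose by 0.45 (adjusted p = 0.00527), that of Wwc1 by 0.36 with overlapping groups (adjusted p = 0.0334), and a gene-end peak of Taok1 fell by 0.42 on the log2 scale (adjusted p = 0.0358). Each of these 3 was lost under at least 2 of the alternatives; Frmd6 held without any 1 library, while Wwc1 and Taok1 were each lost in 6 of the 8 fits without 1 library, such as that without control replicate 1. Wwc1 and Taok1 also had called peaks in the other direction, at 35982905 (-0.68, adjusted p = 0.0305) and 77607843 (0.40, adjusted p = 0.0122), both of which were lost without control replicate 3 and under DESeq2.

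Genes used in other cells as readouts of Yap1 and Tead had 3 of 48 peaks called higher and 2 lower. That was 10.4%, where 13.9% of all tested peaks were called, 11% higher and 2.91% lower. For Ccn1 (Cyr61), a peak 13936 bp outside the gene, at chromosome 3, 145632935 to 145633135, had 163.17, 130.18, 169.33 and 176.34 against 203.03, 211.35, 256.01 and 255.4. It rose without overlap (160 ± 20.4 and 231 ± 28.2; log2 change 0.53, SE 0.12, adjusted p = 0.00228) and missed the threshold under the loess correction (adjusted p = 0.0513). A weaker peak nearer to Ccn1, 5708 bp from it at 145641163 to 145641363, fell, with 17.28, 27.47, 33.87 and 23.51 against 12.69, 11.04, 15.52 and 11.72. Its groups were apart too (log2 change -0.92, SE 0.28, adjusted p = 0.0205), on 18.4 reads per library, and the call was lost under DESeq2 and without control replicate 2 or 3 (adjusted p = 0.0581 to 0.0919). For Ccn2 (Ctgf), the peak at a gene end rose from 296 ± 21.6 to 372 ± 33.7 (log2 change 0.33, SE 0.10, adjusted p = 0.0294), a call lost under 8 of 17 alternatives, among them the fits without control replicate 1 or 3 or paused replicate 3 or 4 (adjusted p = 0.0507 to 0.0969). The other Vestigial-like cofactors had 1 of 11 peaks called (9.09%), at the start of Vgll2 (0.37, adjusted p = 0.0393). That call was lost under 9 of 17 alternatives, among them TMM rescaling, loess correction, edgeR with TMM and DESeq2. It was also lost without control replicate 1, 3 or 4 or paused replicate 3 or 4 (adjusted p = 0.0594 to 0.129).

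By sums, 8 of the 31 wider genes rose and 0 fell, where 29.8% of all genes rose and 1.4% fell. After TMM rescaling 1 rose and 2 fell, where 4.6% and 4.21% of all genes did. The 1 that rose under both was Nuak2, a kinase that is itself a Yap1 target and feeds back on the pathway, from 694 ± 22.0 to 903 ± 45.7 (log2 change 0.38, adjusted p = 5.47e-05; 0.23 and 0.00592 after TMM rescaling). Amotl1 and Ptpn14, both of which bind Yap1, were those that fell after TMM rescaling, by 0.24 and 0.16 on the log2 scale (adjusted p = 0.00937 and 0.029).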

How the data were processed

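The authors' deposited table gives, for each peak and library, reads divided by 1 factor per library (a signal value, per the file headers 1 column per library). Per the submitters' processing notes, FastQC, Trim Galore, Bowtie2 2.4.1, MACS3 3.0.3 and DiffBind 3.16.0 were used with the mm10 (GRCm38) build; how reads were filtered and which normalization was used is not given in the sources used here. The table's log2 fold, per the file headers, and its FDR, an adjusted p-value of the authors' deposited comparison, were copied for the peaks named. In 94.1% of peaks the absolute log2 fold is below the gap between both group means given in that table.

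All values (100%) were whole multiples of 1 step per library within a tolerance of 0.0101, so whole reads could be recovered. The 8 libraries entered limma-trend (limma 3.58.1, R 4.3.3) on log2(value + 1) where the mean over libraries reached 10; adding 1 understates the change of low peaks. The count test on recovered reads, edgeR 4.0.16 quasi-likelihood with the deposited factors, called 16424 peaks higher and 4621 lower, limma-trend 13958 and 3702. Other alternatives were TMM, a loess correction, DESeq2 1.42.0, the pseudocount, the filter, the window, a replicate block and leaving out each library. The fits were also run on simulated reads with 1 dispersion for all peaks and no shift between the groups, which cannot test the scaling. Of 100 simulated peaks changed by 1 on the log2 scale, limma-trend called 71 and edgeR 77. Unchanged peaks called numbered 2 and 8.

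Peaks are 201 bp wide. Gene spans and neighbours came from the RefSeq table of GRCm38.p6, which holds no exons, so exonic and intronic positions were not analysed here. A peak equally near to 2 genes was counted for both. Named for each gene were the peak at its start or end within 1 kb, the strongest peak, the peak of smallest adjusted p, and up to 3 more called peaks without overlap; for neighbours, the peak of smallest adjusted p per window; for the wider list, called gene-end peaks and the clearest per role. The remaining called peaks of Tead1, the wider-list peaks called against the direction of a named one, and all Nuak2, Amotl1 and Ptpn14 values were added after the values were seen. The genes, lists and tests were chosen with earlier results of these data known.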

Additional observations from a re-analysis of the deposited data

Results flagged for a closer look

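In 6 of 122 groups of 4 libraries examined, 1 library stood apart from the other 3 by more than Dixon's 95% limit for 4 values (gap divided by range); chance gives about 1 in 20. At the Tead1 peak at 112841961, control 4 had 173.4 and the other control libraries 154.09 to 156.46 (ratio 0.877). At the Commd2 peak at 57625748, in the window of Wwtr1, paused 2 had 15.77 and the others 32.58 to 35.76 (0.841). For summed values, control 3 was high for Tead3 at 599.43, with the others at 509.91 to 514.76 (0.946). Control 1 was low for Tead4 at 1299.81, with the others at 1428.44 to 1439.29 (0.922), and control 2 was high for Lats2 at 1056.99, with the others at 927.85 to 941.47 (0.895). Control 1 also had 21161767 reads in peaks (0.891).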

How the results depend on the processing

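Of the 15 called Hippo peaks, 3 kept their call under every alternative, at Amotl2 (102693050 and 102720021) and Tead1 (112663352); 9 were lost under TMM rescaling, 10 under the loess correction, 11 under DESeq2, 6 under edgeR with TMM and 6 without control replicate 1, the deepest library. Of the 13 other named Hippo peaks, 4 gained a call under at least 1 alternative. The 2 weakest called peaks rest on 17.1 and 18.8 reads per library. The cause of these changes was not tested.

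Hippo peaks called higher (12) became 3, 3, 6 and 2 under TMM rescaling, loess correction, edgeR with TMM and DESeq2, and those called lower (3) became 5, 5 and 7 under the first 3. Counting all peaks in the windows gave 21 and 8. Leaving out 1 library gave 5 to 11 higher and 1 to 4 lower, with the lowest of both without paused replicate 4. In the wider list, calls higher (23) became 10, 7, 14 and 6 under those 4 settings and 36 under edgeR with the deposited factors, and calls lower (10) became 16 under edgeR with TMM, 5 under DESeq2 and 3 with at least 50 reads; without 1 library they were 13 to 28 and 4 to 10. Over all peaks, calls higher (13958) became 7631 under TMM, 6497 under loess and 3902 under DESeq2, and calls lower (3702) became 6759 under edgeR with TMM, 1892 under DESeq2 and 791 with at least 50 reads; without 1 library they were 8980 to 12689 and 2314 to 3871.

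Summed values called higher (3 genes) became 0 under TMM, loess, edgeR with TMM and DESeq2, and those called lower (1) became 2, 3, 2 and 2; without 1 library 3 to 4 were higher and 0 to 1 lower. Under these 4 settings, in that order, signs turned negative for Tead1 (-0.10, -0.11, -0.11 and -0.11), Tead2 (-0.0766, -0.0775, -0.0867 and -0.0846), Wwtr1 (-0.0161, -0.0206, -0.0075 and -0.0096), Lats1 (-0.12, -0.13, -0.12 and -0.12) and Vgll4 (-0.0133, -0.0208, -0.0081 and -0.00996). Without 1 library Lats1 ranged from -0.0359 to 0.12. The loess correction turned the peaks at Tead2 45229584 (-0.0588), Tead4 128300477 (-0.0447), Yap1 8004631 (-0.016), Wwtr1 57575854 (-0.0419) and Lats1 7681350 (-0.0132). Leaving out 1 library gave -0.16 to 0.0642 at Tead1 112679119, -0.14 to 0.00598 at Tead3 28350930 and -0.0032 to 0.21 at Tead2 45229584.

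The labels do not say whether the replicate numbers pair the samples. Deviations of same-numbered libraries correlated at 0.079, 0.036, 0.133 and 0.039, not all above 0.1, and 3 of 4 numbers matched best with their own, so the fits were left unpaired and pairing remains unknown. With the replicate block the Hippo peaks called higher were 14 and lower 6, the wider list 32 and 11, all peaks 17371 and 4623, and the summed genes 4 and 1; all 15 Hippo calls held.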
